A study of Mus musculus with 15 samples.

Results

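The circadian clock genes described here are Clock, Per1, Per2, Per3, Cry1, Cry2, Nr1d1, Nr1d2, Dbp and Tef, 10 genes chosen by name and found on the arrays through the transcript accession of each probe. They have 11 probes of 55681, of which 28020 were matched to a symbol of 21150 genes. Dbp has 2 probes and each of the others has 1. The clock is a feedback loop of transcription: CLOCK and its partner BMAL1 bind E-boxes and switch on the Per and Cry genes, whose proteins return to the nucleus and repress that activity. A second loop runs through the nuclear receptors REV-ERBα and REV-ERBβ, made from Nr1d1 and Nr1d2, which compete with ROR receptors at shared DNA elements and repress Bmal1. DBP and TEF are output factors of the same family that bind D-boxes, and in most tissues, skeletal muscle and bone included, the mRNAs of these genes swing over the day, so that a level belongs to a time of day.

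RNA from 15 male C57BL/6J mice, labelled as 9 weeks old, was hybridised with 1 array per mouse. That label is not the age at death, since the mice were killed weeks later, after the flight. The G-Sham (4 mice) and FLT-Sham (4 mice) groups were unoperated, and the G-Surgery (4 mice) and FLT-Surgery (3 mice) groups had a segmental bone defect of the femur, held open by a scaffold wrapped in a collagen sponge soaked in saline. FLT mice flew on the International Space Station and G mice were kept on the ground in matching housing. The tissue is labelled callus in all 4 groups, and in unoperated mice it was the same midshaft region of the femur. The mice were killed over several days, and the carcasses were frozen whole and partly thawed for dissection. The paper reports sub-optimal RNA quality, comparable between flight and ground mice, and lists it as a limitation. The clock hour at which each mouse was killed is not given in the sources used here. Replicates are named by the numbers of the labels.

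On each array the mouse RNA carried the red dye Cy5 and a universal mouse reference RNA, pooled from cell lines, carried the green dye Cy3. Values are the log2 ratio of Cy5 over Cy3 unless a Cy5 signal is named. A ratio compares a gene with the same gene in the reference, so its size is not compared between genes. Per array, 12525 to 21493 probes (22.5% to 38.6%) had a Cy5 signal well above background. Markers of cell types were read as a check on the tissue. All 12 skeletal muscle genes and 6 of 10 osteoblast and osteocyte genes were above background on at least 3 arrays, whereas Dmp1, Phex, Sost and Sp7 were above background on 0 of 15. In such mixed tissue, fewer cells of a type and less RNA per cell cannot be told apart. The arrays lay on 3 slides of 7, 7 and 1 arrays, the single one being G-Sham replicate 4.

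The elements named above were looked for in the 250 bases before transcription start sites from RefSeq (GRCm38.p6). In the set of start sites used here 9 of the 10 genes had an entry, and Per2 is the missing one. Both strands were read. A gene was counted if any of its start sites had the motif, whereas the percentages count single promoters, so they are unlike measures. The E-box CACGTG was present before Per1, Tef and Cry1 and in 6.02% of all 32841 such promoters. The E-box variant CACGTT was present before Cry1, Cry2 and Nr1d1 and in 3.85% of all promoters. The D-box TTANGTAA was present before Per3 alone among the 9 genes, in 2 copies, and in 2.06% of all promoters. The letters TNGGTCA, with any base at N, were present before Cry2, Per3 and Tef and in 9.19% of all promoters. The match read TGACCAA on the strand of each of these genes. These letters are looser than the core bound by the nuclear receptors, so no receptor site is read from them. One E-box or variant for each of Per1, Tef and Cry2, that of Nr1d1 and the doubled D-box of Per3 are shown 5′ to 3′ on the strand of the gene. The motif is in capitals, and the variant reads AACGTG on that strand in both genes shown. A match describes these letters and does not show that a factor binds there.
Per1, E-box, chr11:69098769-69098802, plus strand: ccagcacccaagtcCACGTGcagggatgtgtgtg
Tef, E-box, chr15:81802532-81802565, plus strand: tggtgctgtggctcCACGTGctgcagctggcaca
Cry2, E-box variant, chr2:92434216-92434249, minus strand: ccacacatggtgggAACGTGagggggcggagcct
Nr1d1, E-box variant, chr11:98775386-98775419, minus strand: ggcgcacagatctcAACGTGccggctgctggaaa
Per3, D-box, chr4:151044802-151044837, minus strand: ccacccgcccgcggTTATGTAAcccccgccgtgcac
Per3, D-box, chr4:151044849-151044884, minus strand: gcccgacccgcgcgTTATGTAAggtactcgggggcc

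Whether each gene could be measured came first. Tef, Per1 and both Dbp probes were above background in Cy5 on 15 of 15 arrays, and Cry2 was on 13. Nr1d2 was above background on 7 arrays, Nr1d1 on 3, Clock on 2 and Per3 on 2. Cry1 and Per2 were above background on 0 arrays. The reference channel measured every one of these probes on all 15 arrays except that of Cry1, which it measured on 6. A probe that was not well above background has only an upper bound in the mouse RNA, and the open circles in the plot of values by array stand for such values.

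**Figure D1:**
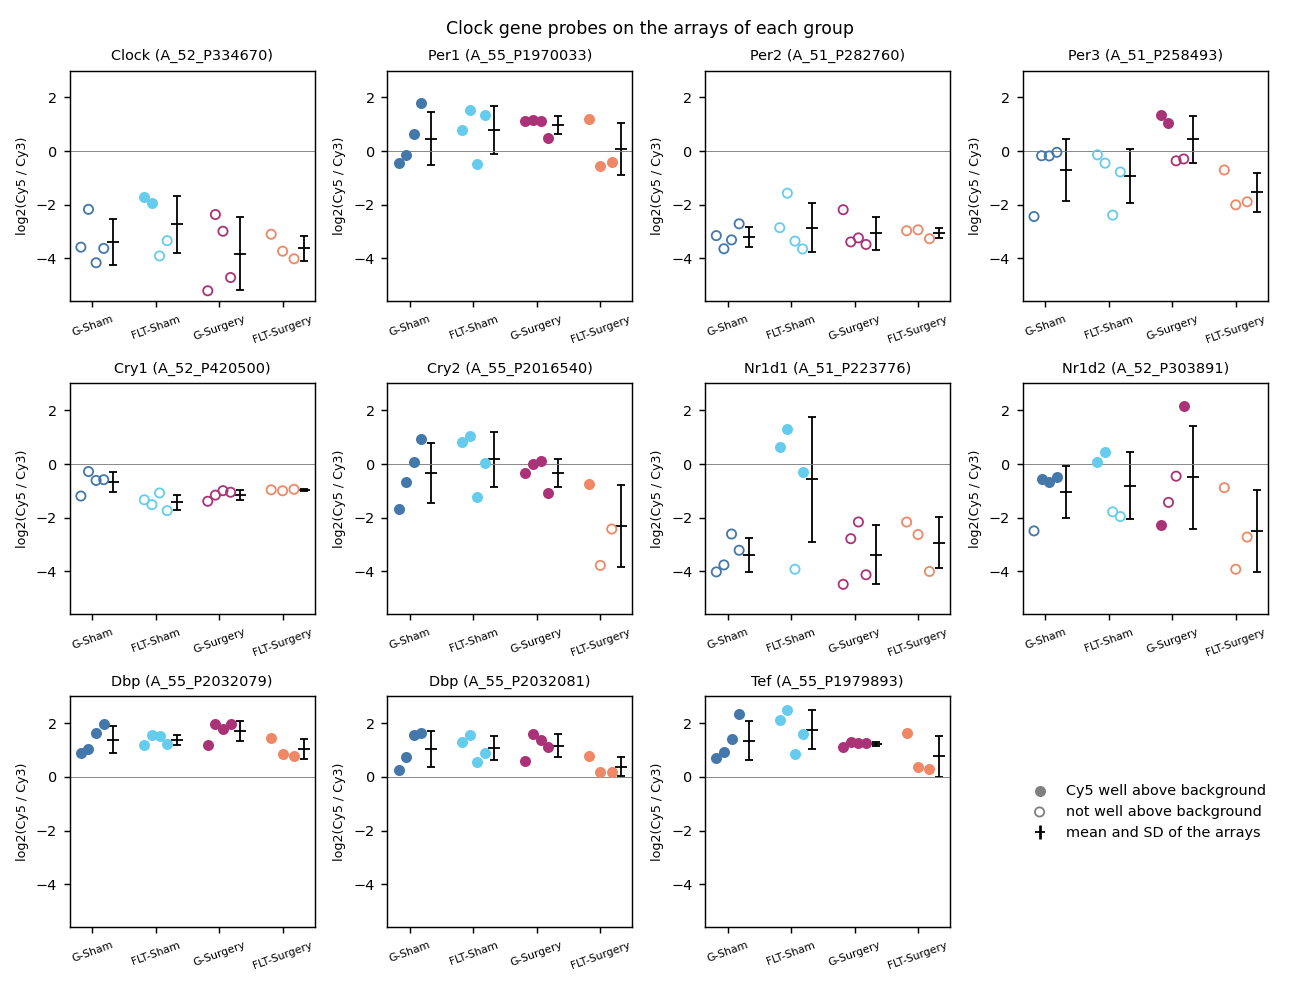
Log2 ratio of Cy5 over Cy3 for the 11 clock gene probes (vertical axis) in the 4 groups (horizontal axis); each circle is 1 array, filled where the Cy5 signal was well above background, with the mean and SD beside it. Tef, Per1 and Dbp are filled on all 15 arrays, Nr1d1 is filled on 3 FLT-Sham arrays alone, and Cry1 and Per2 are open throughout.

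Clock encodes the activating subunit of the core loop. Its Cy5 signal was 252 and 214 in FLT-Sham replicates 4 and 6, where it was above background, and 67.2 and 103 in replicates 8 and 9. In the other 11 arrays it lay between 32.2 and 158 and was not well above background. The groups overlapped, since the highest G-Surgery signal of 158 exceeded 2 FLT-Sham signals. Clock had too few arrays above background to be tested.

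Per1 encodes a repressor of the core loop whose transcription also answers quickly to hormones and other signals. Its log2 ratio was -0.43, -0.15, 0.65 and 1.78 in G-Sham replicates 1, 3, 4 and 5 and 0.79, 1.52, -0.47 and 1.35 in FLT-Sham replicates 4, 6, 8 and 9. It was 1.13, 1.15, 1.13 and 0.47 in G-Surgery replicates 1, 3, 4 and 5 and 1.21, -0.57 and -0.40 in FLT-Surgery replicates 1, 3 and 5. Both Sham groups spanned about the same range, whereas 2 of 3 FLT-Surgery arrays lay below all 4 G-Surgery arrays and replicate 1 lay above them. Per1 was lower in FLT-Surgery than in G-Surgery by -0.89 (SE 0.47, 95% interval -1.99 to 0.21, limma adjusted p = 0.361). The other differences were 0.33 (SE 0.61) for FLT-Sham minus G-Sham, 0.51 (SE 0.48) for G-Surgery minus G-Sham and -0.72 (SE 0.65) for FLT-Surgery minus FLT-Sham and none of them exceeded the spread between arrays (limma adjusted p from 0.465 to 0.781).

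Per2 and Per3 encode the other Period proteins. The Per2 signal lay between 22.7 and 82.4 on the 15 arrays and was never well above background, so no difference was read from it. Per3 was above background in G-Surgery replicates 1 and 3, with log2 ratios of 1.33 and 1.07, and below it on the other 13 arrays, where ratios ran from -2.44 to -0.04. In G-Surgery replicates 4 and 5 the ratios were -0.36 and -0.29, inside the range of the Sham arrays, so the group was split. Per3 was above background on too few arrays to be tested.

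Cry2 and Cry1 encode cryptochromes, the strongest repressors of CLOCK and BMAL1. The Cry2 log2 ratio was -1.68, -0.67, 0.08 and 0.92 in G-Sham replicates 1, 3, 4 and 5 and 0.83, 1.04, -1.22 and 0.02 in FLT-Sham replicates 4, 6, 8 and 9. It was -0.35, -0.02, 0.10 and -1.09 in G-Surgery replicates 1, 3, 4 and 5 and -0.73, -3.78 and -2.42 in FLT-Surgery replicates 1, 3 and 5. FLT-Surgery held the 2 lowest values of the series, both not well above background, but its replicate 1 lay within the G-Surgery range, so the groups overlapped. In Cy5 signal the means were 467 ± 356 (SD, n = 3) in FLT-Surgery, 1327 ± 396 (SD, n = 4) in G-Surgery, 1365 ± 691 (SD, n = 4) in G-Sham and 2639 ± 1582 (SD, n = 4) in FLT-Sham. Cry1 was listed between 15.7 and 31.0 on all arrays and was not well above background on any.

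Of the 10 genes, Cry2 gave the widest fitted difference in the callus, among the 4 that could be tested. It was lower in FLT-Surgery than in G-Surgery by -1.97 (SE 0.69, 95% interval -3.57 to -0.37, adjusted p = 0.280, limma) and lower than in FLT-Sham by -2.48 (SE 0.82, 95% interval -4.39 to -0.57, adjusted p = 0.159, limma). Between the ground groups the difference was 0.00020 (SE 0.55, 95% interval -1.26 to 1.26), and between the Sham groups it was 0.51 (SE 0.68). The spaceflight difference in the operated mice minus that in the unoperated mice was -2.48 (SE 1.03, adjusted p = 0.222, limma). Within slide 1 the FLT-Surgery mean was lower than the G-Surgery mean by -2.65 (2 against 3 arrays) and within slide 2 by -0.71 (1 against 1), and with slide as a block Cry2 passed the cut-off at -2.08, as did 7.82% of all probes. The difference was -1.20 with loess within arrays, -0.21 with normexp and loess, -2.76 without FLT-Surgery replicate 1 and -1.24 without FLT-Surgery replicate 3. With normexp and loess it was the smallest of the 4 genes, beside -0.75 for the brighter Dbp probe, -0.45 for Tef and -0.45 for Per1. Skeletal muscle markers ran the same way: the mean log2 ratio of the 12 genes was 7.09, 3.81 and 4.28 in FLT-Surgery replicates 1, 3 and 5 and 5.79 to 8.01 in G-Surgery, and their part in the result was not tested.

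Nr1d1, which encodes REV-ERBα, was seen in 1 group. Its Cy5 signal was 843, 1390 and 520 in FLT-Sham replicates 4, 6 and 9 and 52.2 in FLT-Sham replicate 8. In the other 3 groups it lay between 36.0 and 136 and was not well above background on any of 11 arrays. FLT-Sham replicate 8 therefore sat among the ground arrays, and the remaining 3 FLT-Sham arrays sat above every other array of the series. By mean normalized Cy5 level over all 4 FLT-Sham arrays, Nr1d1 was 5.02-fold higher in FLT-Sham than in G-Sham and 3.69-fold higher than in FLT-Surgery. Signals not well above background, FLT-Sham replicate 8 among them, stood at their measured values, so these folds are not lower bounds.

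The log2 ratio of Nr1d1 was 0.65, 1.29, -3.92 and -0.30 in FLT-Sham replicates 4, 6, 8 and 9 and -4.02, -3.76, -2.61 and -3.21 in G-Sham replicates 1, 3, 4 and 5. The difference of 2.83 (SE 1.03, 95% interval 0.48 to 5.18, adjusted p = 0.502, limma) missed the cut-off, and with normexp and loess it was 0.43. Nr1d1 entered this test only through the 3 FLT-Sham arrays where it was above background, so the fitted value is set against G-Sham values that are bounds. Without FLT-Sham replicate 8 the same fit gave 3.95 (adjusted p = 0.0140, limma), when 10.8% of all 19478 probes passed the cut-off, and this value has the same limit. Within slide 1 the difference was 4.41 (1 against 1 array) and within slide 2 it was 2.64 (3 against 2). FLT-Sham replicates 4, 6 and 9 also had 19470 to 21493 probes above background against 14890 in replicate 8 and 12998 to 18397 in G-Sham, and adipocyte markers averaged 4.22 to 4.41 in those 3 arrays against 2.56 in replicate 8 and -0.04 to 3.15 in G-Sham. The part of these measures in the Nr1d1 values was not tested.

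Nr1d2, which encodes REV-ERBβ, did not follow Nr1d1. It was above background in FLT-Sham replicates 4 and 6, in G-Sham replicates 3, 4 and 5 and in G-Surgery replicates 1 and 5. Its log2 ratio was 0.09, 0.44, -1.78 and -1.96 in FLT-Sham replicates 4, 6, 8 and 9 and -2.49, -0.54, -0.67 and -0.48 in G-Sham replicates 1, 3, 4 and 5. It was -2.27, -1.43, -0.45 and 2.16 in G-Surgery replicates 1, 3, 4 and 5 and -0.88, -3.92 and -2.72 in FLT-Surgery replicates 1, 3 and 5. All 4 groups overlapped, and G-Surgery replicate 5 held the highest value of the series. Nr1d2 differed by 0.24 (SE 0.70) between the Sham groups and by 0.55 (SE 0.92) between the ground groups, where it was -0.34 without G-Surgery replicate 5. It could not be tested against FLT-Surgery, where it was above background on 0 arrays. With signals as measured, the FLT-Surgery mean was lower than the G-Surgery mean by -3.13 within slide 1 (2 against 3 arrays) and higher by 0.55 within slide 2 (1 against 1). The FLT-Surgery values are bounds, so no contrast between slides is read from them.

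Dbp encodes a D-box activator that is among the most strongly rhythmic clock outputs. The brighter probe (A_55_P2032079) gave log2 ratios of 0.88, 1.05, 1.65 and 1.96 in G-Sham replicates 1, 3, 4 and 5 and 1.19, 1.56, 1.51 and 1.22 in FLT-Sham replicates 4, 6, 8 and 9. It gave 1.18, 1.97, 1.80 and 1.96 in G-Surgery replicates 1, 3, 4 and 5 and 1.45, 0.85 and 0.78 in FLT-Surgery replicates 1, 3 and 5. The 2 lowest values of the series were again FLT-Surgery replicates 3 and 5, and replicate 1 lay inside the G-Surgery range. The second probe (A_55_P2032081) gave 0.18 in each of those 2 arrays and 0.26 to 1.65 in the other 13.

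Both Dbp probes had small differences in the Sham comparison, -0.01 (SE 0.34, 95% interval -0.79 to 0.76) and 0.03 (SE 0.42, 95% interval -0.93 to 0.98). In the Surgery comparison they were lower in FLT by -0.70 (SE 0.32, adjusted p = 0.318, limma) and -0.78 (SE 0.33, adjusted p = 0.303, limma). Within slides 1 and 2 the brighter probe was lower in FLT-Surgery by -0.83 and -0.51 and the second probe by -0.83 and -0.82. The direction was therefore shared by both probes and both slides, while the size was under the 2-fold cut-off.

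Tef encodes a factor that binds the same D-box sequence as DBP. Its log2 ratio was 0.72, 0.93, 1.41 and 2.35 in G-Sham replicates 1, 3, 4 and 5 and 2.11, 2.51, 0.84 and 1.59 in FLT-Sham replicates 4, 6, 8 and 9. It was 1.10, 1.29, 1.27 and 1.25 in G-Surgery replicates 1, 3, 4 and 5 and 1.64, 0.35 and 0.30 in FLT-Surgery replicates 1, 3 and 5. The G-Surgery arrays were close together (SD 0.09), the other groups were spread (SD 0.72 to 0.75), and FLT-Surgery again held both the lowest pair and 1 array above every G-Surgery array. Tef differed by 0.41 (SE 0.50) between the Sham groups, by -0.46 (SE 0.37, 95% interval -1.33 to 0.40) between the Surgery groups, by -0.13 (SE 0.36) between the ground groups and by -1.0 (SE 0.54, adjusted p = 0.271, limma) between FLT-Surgery and FLT-Sham.

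Ranked by mean log2 ratio over the groups, the genes above background on 13 or more arrays shared part of an order, with Cry2 not well above background in FLT-Surgery replicates 3 and 5. FLT-Surgery had the lowest mean for Tef (0.76), Per1 (0.08), Cry2 (-2.31) and both Dbp probes (1.03 and 0.38). The highest mean was in FLT-Sham for Tef (1.76) and Cry2 (0.17) and in G-Surgery for Per1 (0.97) and both Dbp probes (1.73 and 1.16). Groups next to each other in rank differed by less than the larger of their SDs for each of these probes, with 1 exception, FLT-Surgery and the ground groups for Cry2.

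**Figure D2:**
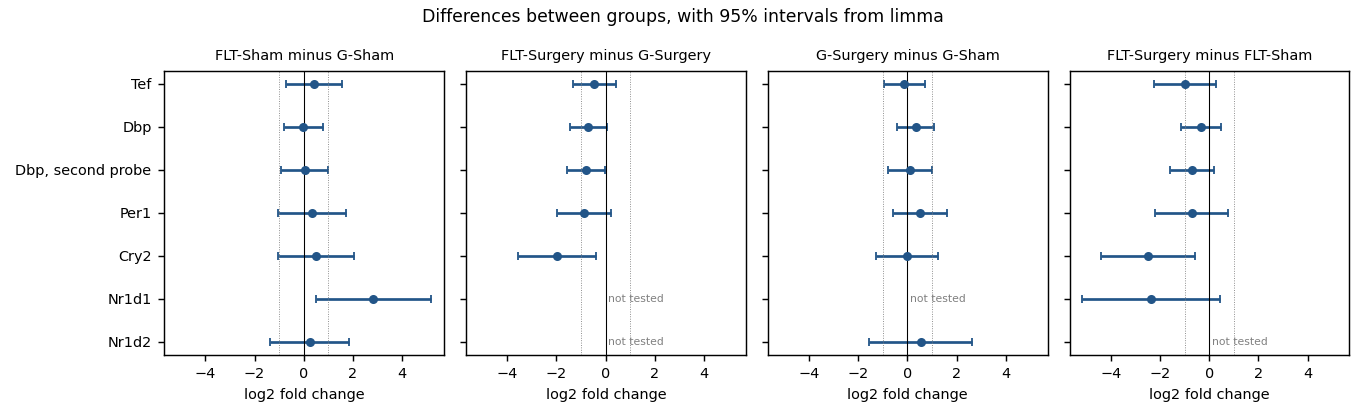
Log2 fold change of the 7 tested clock gene probes (horizontal axis, points with 95% intervals from limma) in the 4 comparisons; dotted lines mark a 2-fold change, and a gene with too few arrays above background is written as not tested. Cry2 lies at -1.97 and -2.48 in the comparisons with FLT-Surgery, Nr1d1 lies at 2.83 in the Sham comparison, and the intervals of most other genes include 0.

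As a group, none of the 10 genes passed the cut-off that the study used, a change of 2-fold or more and p, before adjustment, of at most 0.01 (limma). In FLT-Sham minus G-Sham 6 genes could be tested, 0 passed the cut-off beside 1.99% of all probes, and 1 (Nr1d1, through the FLT-Sham arrays alone) had p of at most 0.05 beside 9.65% of all probes. In FLT-Surgery minus G-Surgery 4 genes were tested, 0 passed beside 3.13%, and 1 (Cry2) had p of at most 0.05 beside 16.4%, Dbp being counted by its brighter probe. In G-Surgery minus G-Sham 5 genes were tested, 0 passed beside 2.62%, and 0 had p of at most 0.05 beside 10.9%. In FLT-Surgery minus FLT-Sham 5 genes were tested, 0 passed beside 6.63%, and 1 (Cry2) had p of at most 0.05 beside 24.3%. For the difference between the 2 spaceflight comparisons 6 genes were tested, 0 passed beside 5.34%, and 1 (Cry2) had p of at most 0.05 beside 19.5%. No adjusted p of a clock gene was at most 0.05. Over all probes 2 (0.0113%) reached that level in G-Surgery minus G-Sham, 16 (0.0834%) in FLT-Surgery minus FLT-Sham and 0 in the others.

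The direction of the genes was set beside that of all probes. The median log2 difference of the tested clock genes was 0.37 in FLT-Sham minus G-Sham, beside 0.25 over all probes, with 5 of 6 genes above 0 (4 of 6 after loess within arrays or normexp and 6 of 6 from Cy5 alone). It was -0.79 beside -0.20 in FLT-Surgery minus G-Surgery, with 4 of 4 below 0, and -1.0 beside -0.29 in FLT-Surgery minus FLT-Sham, with 5 of 5 below 0, and both counts were the same under the 4 other scalings. In G-Surgery minus G-Sham it was 0.34 beside 0.14, with 4 of 5 above 0 (3 of 5 under each of the 4 other scalings). These comparisons share groups of arrays, so they do not repeat each other independently. Of all probes, 61.2%, 37.8%, 41.4% and 59.9% were above 0 in the Sham, Surgery, FLT-Surgery minus FLT-Sham and G-Surgery minus G-Sham comparisons.

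The remaining clock machinery was read from 20 further genes, all with a probe: the partners and paralogues of CLOCK and BMAL1, the ROR receptors, the third D-box activator Hlf, the D-box repressor Nfil3, the E-box repressors Bhlhe40, Bhlhe41 and Ciart, the kinases and other genes that act on PER and CRY, and the outputs Noct, Usp2 and Wee1. Counted by the brightest probe, 16, 11, 13 and 16 genes were tested in the Sham, Surgery, G-Surgery minus G-Sham and FLT-Surgery minus FLT-Sham comparisons, and 0 passed the cut-off in each. At p of at most 0.05 in limma the numbers were 2, 5, 1 and 5, beside 9.65%, 16.4%, 10.9% and 24.3% of all probes. In the Sham comparison 14 of 16 were above 0, but 8 to 13 were under other scalings, and in the Surgery comparison 10 of 11 were below 0, but 4 were after loess within arrays or normexp. The direction of this wider list thus depended on the scaling, unlike that of the 4 genes tested above in the Surgery comparison.

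Bmal1, the partner of Clock and the target of REV-ERBα repression, was above background in 3 FLT-Sham arrays and in 0 of the G-Sham arrays. By mean normalized Cy5 level over all 4 arrays it was 3.52-fold higher in FLT-Sham. Signals not well above background stood at their measured values, so this fold is not a lower bound. In the Surgery comparison Hlf was lower in FLT by -0.91 (SE 0.28, adjusted p = 0.280, limma), with ratios of 1.40, 1.15 and 1.16 in FLT-Surgery replicates 1, 3 and 5 and 2.27, 2.52, 2.06 and 1.73 in G-Surgery replicates 1, 3, 4 and 5. The Hlf ranges did not overlap there, but the share of all probes without overlap was not counted. The ranges of Dbp and Tef overlapped.

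Other genes measured on all 15 arrays were Usp2, a deubiquitinase of clock output, and the kinase genes Csnk1d and Csnk1e. Usp2 was lower in FLT-Surgery than in G-Surgery by -1.99 (SE 0.75, adjusted p = 0.288, limma) and differed by 0.03 (SE 0.64) between the Sham groups. The brightest Csnk1d probe differed by -0.21 (SE 0.30) and 0.55 (SE 0.38) in the same comparisons. The brighter Csnk1e probe differed by -0.13 (SE 0.32) and the dimmer one by -1.19 (SE 0.43) in the Surgery comparison, so the probes of that gene disagreed. The dimmer Csnk1e probe was past the cut-off in the difference between the spaceflight comparisons, at -2.06 (SE 0.64, adjusted p = 0.176, limma), where the brighter probe was at 0.41 (SE 0.49).

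How the genes moved together was read from the 4 genes above background on at least 13 arrays, as Pearson's r over 15 arrays after the mean of each group had been subtracted. Per1 and Tef had r = 0.911, Cry2 and Per1 0.899, and Cry2 and Tef 0.893. In an exact permutation test over all 82944 arrangements within groups (two-sided, 6 pairs), the adjusted p was 0.00569, 0.00145 and 0.00145 for these pairs, and Spearman's rho was 0.885, 0.819 and 0.881, with permutation adjusted p of 0.00591, 0.00521 and 0.00181. Not every array followed the line: FLT-Sham replicate 9 was above its group mean for Per1 and below it for Tef and Cry2.

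The brighter Dbp probe had a lower r with these genes, a gap that was not tested. With Tef it had r = 0.648 and rho = 0.681 (exact permutation test, adjusted p = 0.0220 and 0.0170). With Per1 it had r = 0.552 and rho = 0.527 (exact permutation test, adjusted p = 0.0742 and 0.0688), and with Cry2 r = 0.545 and rho = 0.517 (exact permutation test, adjusted p = 0.0742 and 0.0846). The 2 Dbp probes had r = 0.810 with each other, and correlations of the second probe with the other genes were not computed. In the plot of deviations, FLT-Sham replicate 8 lay lowest of all for Per1 and Tef and above its group mean for the brighter Dbp probe. The second Dbp probe had its lowest FLT-Sham value, 0.57, in that array.

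**Figure D3:**
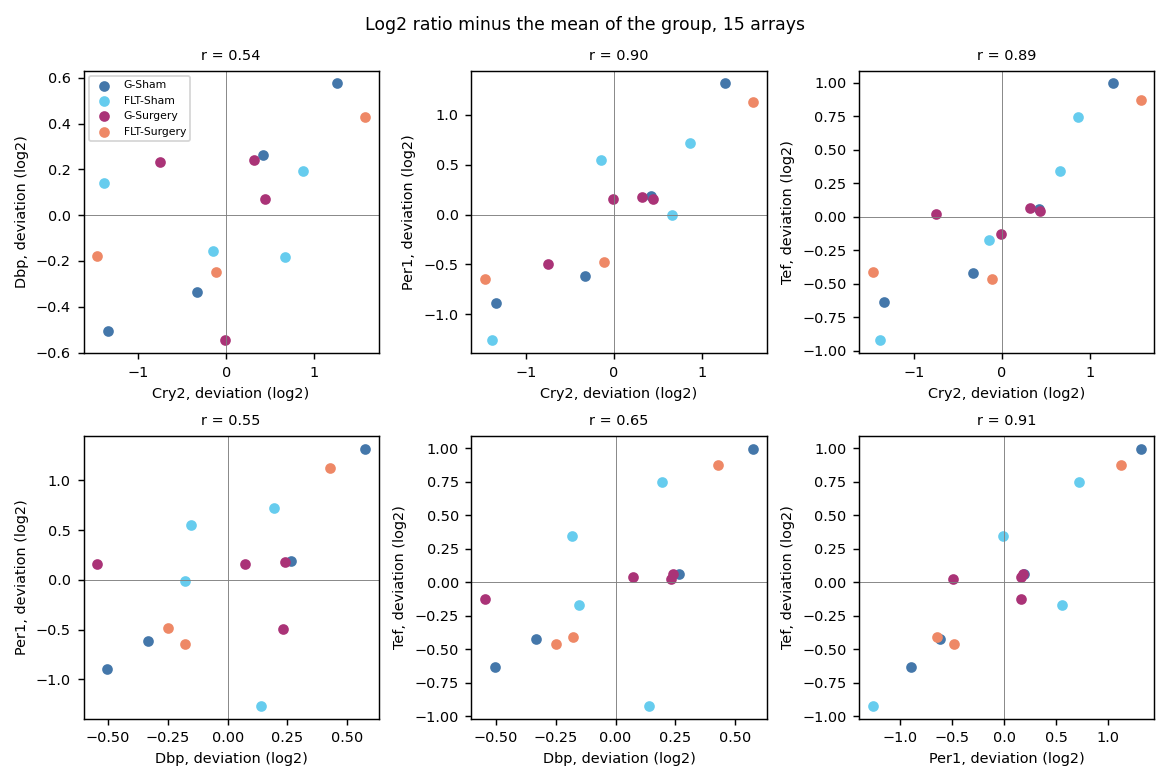
Deviation of each array's log2 ratio from the mean of its group for the 6 pairs of Cry2, Dbp, Per1 and Tef (both axes in log2 units), 1 point per array coloured by group. The 3 pairs without Dbp lie along a line (r from 0.893 to 0.911). The 3 with Dbp, drawn from its brighter probe, had r from 0.545 to 0.648.

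The relation was read again with arrays left out and within slides. Without the 2 arrays farthest from the median of the gene on the horizontal axis, r was 0.789 for Per1 and Tef, 0.897 for Cry2 and Per1 and 0.909 for Cry2 and Tef. With slide means removed as well it was 0.908, 0.903 and 0.891. Within slide 1 (7 arrays, group means not removed) r was 0.740, 0.830 and 0.888, and within slide 2 (7 arrays) it was 0.879, 0.888 and 0.931. The number of probes above background had r from -0.242 to 0.394 with the 4 genes (exact permutation test, adjusted p = 0.423 for each). With slide means removed as well, r was 0.505 for Cry2, 0.530 for Per1, 0.446 for Tef and -0.237 for Dbp. With group means not removed it was 0.607, 0.438, 0.510 and 0.046 for these genes in that order. Within slide 1 it was then 0.752, 0.607, 0.729 and 0.077, and within slide 2 it was 0.557, 0.426, 0.481 and 0.014.

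Among 8314 probes above background on all 15 arrays, r of Tef with Per1 was above that of 99.7% of probes with Tef, and r of Per1 with Tef was above that of 99.9% of probes with Per1. For Cry2, Per1 exceeded 99.5% and Tef 99.4% of probes. The brighter Dbp probe exceeded 80.7% of probes for Tef, 76.2% for Per1 and 76.0% for Cry2. For that Dbp probe, Tef exceeded 97.6%, Per1 91.8% and Cry2 91.4%. The genes whose probes were most like Tef were Aqp1 (r = 0.949), Dnajb6 (0.947) and Castor2 (0.933), and those most like Dbp were Bnip3l (0.820), Celf2 (0.813) and Tpm1 (0.781), each over 15 arrays.

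Markers of the tissue moved with the clock genes. After group means were removed, the mean of the 12 skeletal muscle genes had r = 0.840 with Cry2, 0.826 with Tef, 0.787 with Per1 and 0.673 with Dbp over the 15 arrays. The mean of 6 adipocyte genes had r = 0.819, 0.914, 0.889 and 0.637 with the same genes. The osteoblast and osteocyte list had 0.863, 0.737, 0.710 and 0.576, and the osteoclast list 0.786, 0.849, 0.807 and 0.650. All 8 marker lists had r above 0 with all 4 genes, so the clock genes moved with markers of several cell types.

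With the muscle list removed along with group means, r was 0.75 for Per1 and Tef, 0.712 for Cry2 and Per1 and 0.652 for Cry2 and Tef, and -0.05 to 0.22 for the pairs with Dbp. With the adipocyte list removed it was 0.529, 0.651 and 0.621 for the first 3 pairs and -0.04 to 0.21 for those with Dbp. These removals were chosen after the data were seen. With either list removed, the 3 pairs of Cry2, Per1 and Tef had r above 0.5 and the pairs with the brighter Dbp probe did not. The other marker lists were not removed, and the share of all probes keeping such an r was not counted. The plot against muscle markers shows the same arrays without any group mean removed, where r with the muscle list was 0.910 for Cry2, 0.845 for Tef, 0.688 for Per1 and 0.597 for Dbp.

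**Figure D4:**
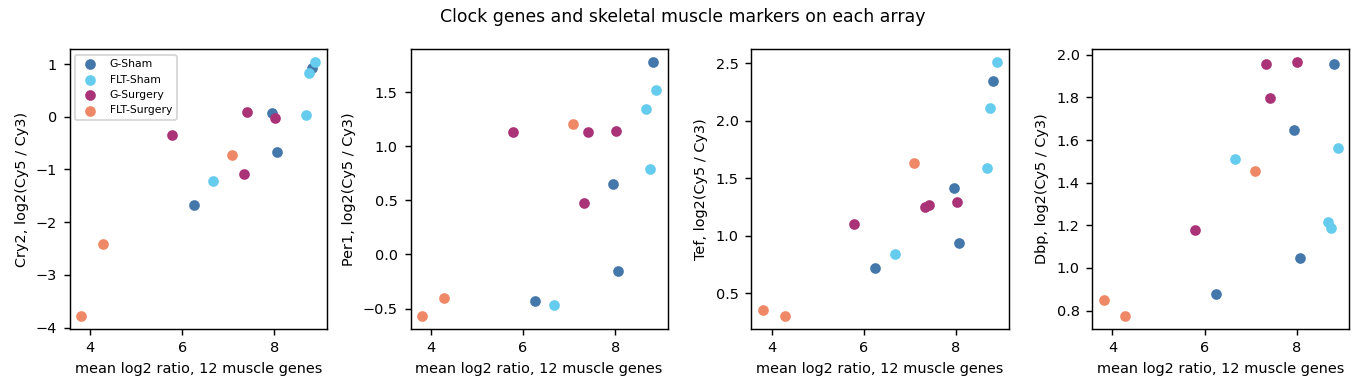
Log2 ratio of Cry2, Per1, Tef and Dbp (vertical axes) against the mean log2 ratio of 12 skeletal muscle genes (horizontal axis) on the 15 arrays, coloured by group. FLT-Surgery replicates 3 and 5, with muscle means of 3.81 and 4.28, lie at the lower left of every panel, and FLT-Surgery replicate 1, at 7.09, lies among the other groups.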

How the data were processed

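From 15 Agilent arrays of 2 colours the authors deposited the tables of Feature Extraction (version 12.0 per the submitters' processing notes), with Cy5 and Cy3 intensity after background subtraction and dye normalization, and their log10 ratio. No dyes were swapped. A change rising with intensity is already in that ratio, so it was turned to log2 with no further loess. Per the file headers a flag marks spots well above background, and outlier spots were left out. Testing used limma 3.58.1 (R 4.3.3) on the arrays of both groups only, for probes whose Cy5 flag was set on 3 or more of them. Adjusted p-values are Benjamini-Hochberg over all probes tested. Correlations used Python 3.11.15 with scipy 1.17.1 and numpy 2.4.6. The folds given for Nr1d1 and Bmal1 compare mean measured Cy5 levels, after quantile normalization of the intensity averaged over both dyes. They are open to dye bias.

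The 10 members were given by name; a gene with 2 probes counts by the brighter. The other clock and marker lists were fixed by name, and of the other clock genes those past the cut-off or measured on all arrays are given with values. Bmal1 was added after its values were seen. Results for some genes are not reported here. For Tef and Dbp the 3 genes most alike by r were named. Members and lists were chosen with earlier results of these data known. Each array is 1 mouse, so p-values measure the spread between mice. Alternatives were loess within arrays, normexp (offset 50) on the median spot signals, Cy5 alone scaled to the percentile 75, median centring, other filters, a shared fit of all arrays, slide and replicate number as blocks, and leaving out each array. In simulated data with 200 probes shifted by 2 log2 units, the cut-off found 65.5% of them for Sham (of 19796 probes simulated, with 221 unshifted probes past it) and 74.5% for Surgery (of 16559, with 176). The number of arrays limits the precision. The value table of the series, which repeats the log ratio, was used only as a check.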

Additional observations from a re-analysis of the deposited data

Results flagged for a closer look

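In 3 of 33 combinations of a clock gene probe and a group of 4 arrays, 1 array stood apart from the others by Dixon's criterion, where chance would give 1.65. Nr1d2 was at -2.49 in G-Sham replicate 1 and between -0.67 and -0.48 in the other 3 G-Sham arrays. Per3 was at -2.44 in the same array and between -0.18 and -0.04 in the others, all below background. Per1 was at 0.47 in G-Surgery replicate 5 and between 1.13 and 1.15 in the other 3 G-Surgery arrays.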

How the results depend on the processing

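The number of clock genes past the cut-off was 0 in all 5 comparisons and stayed 0 except in the settings that follow. With all 15 arrays in the fit it was 1 in the Sham comparison (Nr1d1, adjusted p = 0.312, limma; 3.06% of all probes) and 1 in FLT-Surgery minus FLT-Sham (Cry2, adjusted p = 0.0617, limma; 13.5%), and with slide as a block it was 1 in the Surgery comparison (Cry2, adjusted p = 0.114, limma; 7.82%). When 1 array was left out it ranged from 0 to 1 (Sham), 0 to 2 (Surgery), 0 to 0 (G-Surgery minus G-Sham), 0 to 2 (FLT-Surgery minus FLT-Sham) and 0 to 1 (difference between the spaceflight comparisons). Every such call came without FLT-Sham replicate 8 or FLT-Surgery replicate 1. Without FLT-Sham replicate 8, Nr1d1 passed in the Sham comparison, at -3.48 (adjusted p = 0.00945, limma) in FLT-Surgery minus FLT-Sham and at -3.49 (adjusted p = 0.0372, limma; 17.5% of all probes) in the difference, and Cry2 at -2.94 (adjusted p = 0.0299, limma) in FLT-Surgery minus FLT-Sham, where 26.3% of all probes passed. Without FLT-Surgery replicate 1, Cry2 was at -2.76 and Per1 at -1.45 (adjusted p = 0.0266 and 0.0350, limma; 12.7% of all probes) in the Surgery comparison, and Cry2 at -3.27 in both other comparisons (adjusted p = 0.0580 and 0.0744, limma; 13% and 10.3% of all probes). Nr1d1 entered these tests only through FLT-Sham. With normexp and loess, Cry2 was at -0.40 in FLT-Surgery minus FLT-Sham and -0.22 in the difference. Small differences changed sign, and the cause was not tested. Nr1d2 in the Sham comparison became -0.30 (loess) and -0.059 (normexp). The brighter Dbp probe there became 0.0037 (Cy5 alone) and 0.049 (slide), and the second -0.093, -0.064 and -0.026 (loess, normexp and centring). In G-Surgery minus G-Sham, Cry2 became -0.23, -0.18, -0.13 and -0.11 (loess, normexp, Cy5 alone and centring) and Tef 0.028 (slide). With 1 array left out these ranged from -0.24 to 0.63 (Nr1d2, Sham), -0.18 to 0.18 and -0.23 to 0.23 (Dbp, Sham), -0.34 to 1.14 (Nr1d2), -0.34 to 0.20 (Tef), -0.45 to 0.42 (Cry2) and -0.15 to 0.32 (second Dbp probe, all G-Surgery minus G-Sham). The median r of the 6 pairs, 0.771, ranged from 0.687 to 0.851 with 1 array left out and moved to 0.437 and 0.369 with muscle or adipocyte markers removed, a setting chosen after seeing the data. Same-numbered arrays did not deviate together (r from -0.362 to 0.354) in the Surgery and G-Surgery minus G-Sham comparisons, where this was read. With a replicate block the number of clock genes past the cut-off was 0 in both, with Cry2 at -1.83 in the Surgery comparison. The Sham comparison also shares 1 replicate number and was fitted without that block. Over all probes, loess moved the median difference in FLT-Surgery minus G-Surgery from -0.20 to 0.29 and in FLT-Surgery minus FLT-Sham from -0.29 to 0.32, and the probes past the cut-off from 347 lower of 520 to 60 lower of 1233 and from 1191 lower of 1272 to 604 lower of 1230. Over the settings with all arrays kept, the probes past the cut-off numbered 36 to 683 (Sham, against 394), 209 to 1299 (Surgery, 520), 205 to 595 (G-Surgery minus G-Sham, 465), 295 to 2596 (FLT-Surgery minus FLT-Sham, 1272) and 333 to 1623 (difference, 1167), and with 1 array left out 94 to 2098, 246 to 2055, 244 to 756, 298 to 4934 and 546 to 3797. Genes below background have bounds only.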
